A study of Mus musculus with 19 samples.

Results

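The genes described here are 10 that code for chaperones, folding enzymes and regulators of the endoplasmic reticulum (ER): Hspa5, Hsp90b1, Hyou1, Dnajb9, Sdf2l1, Pdia4, Pdia6, Creld2, Herpud1 and Xbp1. They were found by symbol in the deposited count table, where all 10 of 24421 gene symbols searched for were present, and all 10 passed the filter on low counts. Secreted and membrane proteins fold in the ER, and in liver, which makes most plasma proteins, the load on this compartment changes with feeding. When unfolded proteins build up, the sensors IRE1 (coded by Ern1), PERK (Eif2ak3) and ATF6 start the unfolded protein response (UPR). IRE1 splices the mRNA of Xbp1 into the form that codes for an active transcription factor, ATF6 is cut to release a transcription factor, and both raise transcription of chaperones and of genes for ER-associated degradation (ERAD), the route by which misfolded proteins are returned to the cytosol and destroyed.

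The data are RNA-seq counts from mouse liver, in 19 libraries of 4 groups that cross an antisense oligonucleotide (ASO) with feeding. The mice were on a purified normal diet and received 2 injections a week, over 3 weeks, of a control ASO or of an ASO against Plin5, which codes for the lipid droplet protein perilipin 5. All were fasted overnight, and the re-fed groups then had food for 4 h before the liver was taken. The groups were fasted control ASO (n = 4, numbered 1, 3, 4 and 5), fasted PLIN5 ASO (n = 5), re-fed control ASO (n = 5) and re-fed PLIN5 ASO (n = 5). The labels state neither strain, sex nor age. The PLIN5 groups had 1 oligonucleotide, so effects of lower Plin5 and other effects of that oligonucleotide cannot be told apart. The labels do not say whether the numbered libraries of a group came from separate animals, so p-values measure the spread between these libraries. By its title the study concerns perilipin 5 in fasting, autophagy and inflammation, and it is used here to ask how ER folding genes differed with feeding and with the ASO.

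Levels are given as CPM, which are counts scaled to a common library size, with the SD between libraries. Total counts ranged from 24942147 to 66862784 reads a library, and the lowest count of any of the 10 genes in any library was 119. Plin5 itself was 36.9 ± 1.52 CPM (SD, n = 4) in fasted control and 9.13 ± 3.44 CPM (n = 5) in fasted PLIN5 liver, and 37.5 ± 10.8 and 7.74 ± 3.20 CPM (n = 5 each) in the re-fed groups, with no overlap between ASOs. The labelled tissue matched its markers: 8 of 8 hepatocyte markers, Alb and Apob among them, were detected and summed to 84080 to 145900 CPM. Libraries 3 and 5 of fasted PLIN5 and libraries 3 and 5 of re-fed control stood apart in circadian clock genes. Arntl, a core clock activator, was 14.6 and 15 CPM in the first pair and 23.8 and 45.0 CPM in the second, and the other 15 had 4.87 CPM or less. Dbp, which the clock drives, was 1.82 to 18.9 CPM in these 4 libraries and 36.3 CPM or more elsewhere. The split was not clean. Re-fed control 2 (Dbp 50.2, Arntl 3.47 CPM) and re-fed PLIN5 2 (Dbp 36.3, Arntl 4.87 CPM) lay part way, and the rest had Dbp of 91.8 CPM or more. Libraries 3 and 5 of fasted PLIN5 and of re-fed control are called clock-shifted below. In re-fed control, 7 of the 10 genes were higher in both such libraries than in the rest of the group, against 19.8% of all genes. In fasted PLIN5, 4 of the 10 were higher in both and 2 lower in both, against 21.9% and 22.7% of all genes. The counts of called genes in each comparison are given with and without the clock-shifted libraries. Within fasted control, libraries 3 and 4 were the most alike pair of the series (chi-square per degree of freedom 3.21 over genes, next lowest pair 18.4). They still differed by more than sampling noise, which does not show that they came from separate animals. They were counted as separate samples, and some counts of called genes with the pair summed are given below.

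The sequences that lead into this gene set are the boxes found in its promoters. The ER stress response element (ERSE) has the letters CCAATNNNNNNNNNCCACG, in which NF-Y binds the CCAAT box and ATF6 or XBP1 the CCACG box, and ERSE-II has ATTGGNCCACG. Both strands were searched for exact matches in RefSeq promoter windows (GRCm38.p6, 250 bases before to 50 after each annotated start), which held 9 of the 10 genes. The stretches with an exact match are shown 5′ to 3′ on the strand of the gene, with the box letters in capitals. Only genes with an exact match are shown, and not all of the windows held one.
Hspa5: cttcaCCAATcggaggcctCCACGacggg
Hsp90b1: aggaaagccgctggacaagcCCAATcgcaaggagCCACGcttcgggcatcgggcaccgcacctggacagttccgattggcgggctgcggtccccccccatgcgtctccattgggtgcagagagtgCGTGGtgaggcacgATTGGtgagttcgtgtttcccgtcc
Creld2: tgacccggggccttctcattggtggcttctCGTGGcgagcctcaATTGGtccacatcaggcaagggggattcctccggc
Pdia6: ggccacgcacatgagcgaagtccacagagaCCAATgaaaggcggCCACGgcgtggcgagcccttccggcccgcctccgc
Herpud1: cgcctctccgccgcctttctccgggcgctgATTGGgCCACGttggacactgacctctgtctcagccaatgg

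These stretches lie at chr2:34772020-34772048 (plus strand, Hspa5), chr10:86705513-86705676 (minus strand, Hsp90b1), chr15:88819490-88819568 (plus strand, Creld2), chr12:17266461-17266539 (plus strand, Pdia6) and chr8:94386347-94386417 (plus strand, Herpud1). All 5 are upstream of the RefSeq start, and the Hspa5 stretch falls inside the gene span of GENCODE, which starts further upstream, at position 34771970. An exact ERSE was present in 4 of the 9 genes with a window (Hspa5, Hsp90b1, Creld2 and Pdia6), against 0.119% of all 32851 windows. Hsp90b1 held 2 of them, 1 on each strand, and the match of Creld2 was on the reverse strand. Herpud1 alone of the 9 held an exact ERSE-II, which 0.0365% of windows hold. With up to 1 letter different from the ERSE, 6 of 9 windows matched, Pdia4 and Herpud1 being added, against 1.5% of all windows. The windows of Sdf2l1, Dnajb9 and Xbp1 held neither element by these rules. The core of the UPR element, TGACGTGG, was in 0 of the 9 windows and in 0.676% of all windows. ER stress response elements are named for genes of this kind, so their shares here are a description and no test. A match is a description of letters and does not show binding.

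**Figure D1:**
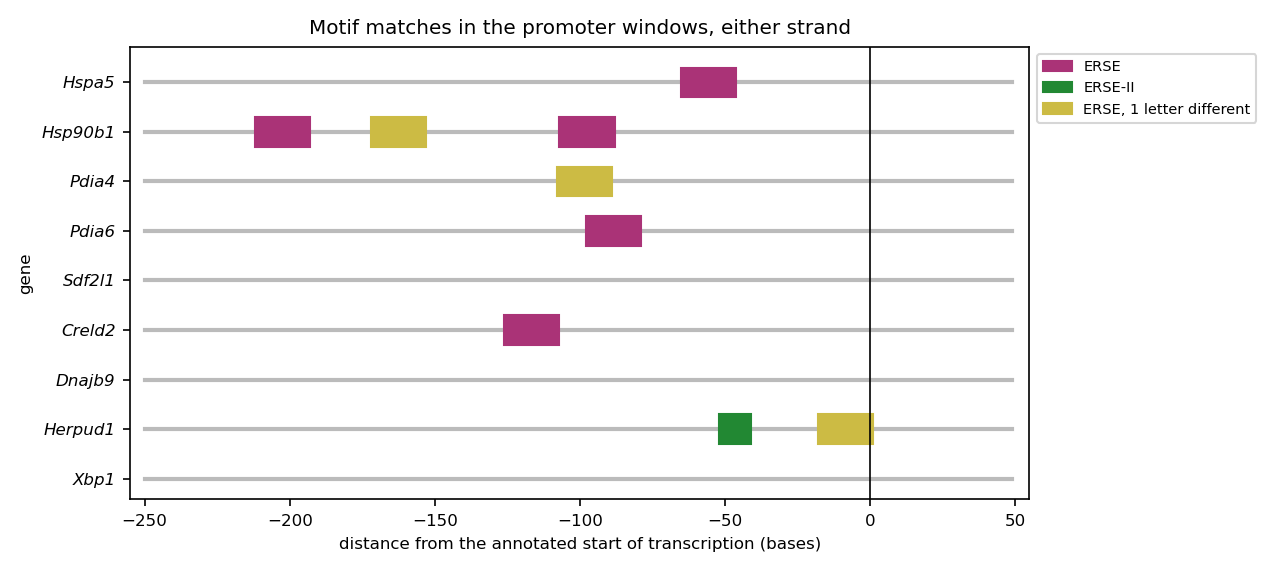
Position of the matches in the promoter windows of the 9 genes, with the distance in bases from the annotated start on the x axis and 1 line per gene. Exact ERSE matches are in purple, ERSE-II in green and ERSE matches with 1 letter different in yellow. Exact ERSE matches sit between 212 and 47 bases before the start in Hspa5, Hsp90b1, Creld2 and Pdia6.

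Levels per transcript length were compared with the deposited FPKM, which scale fragments by transcript length and library size, over all 19 libraries. Herpud1, which codes for an ER membrane protein of ERAD, was the highest at 359.5 ± 67.8 FPKM (SD, n = 19). Hsp90b1 followed at 340.1 ± 109 FPKM and Hspa5 at 266.4 ± 109 FPKM. Pdia6 had 122.9 ± 39.4 FPKM, Xbp1 112 ± 25 FPKM and Pdia4 76.2 ± 29.6 FPKM. The lowest 4 were Dnajb9 at 31.4 ± 9.91 FPKM, Hyou1 at 31.4 ± 18.4 FPKM, Creld2 at 25.1 ± 18.1 FPKM and Sdf2l1 at 15.4 ± 14.2 FPKM. Neighbours in this order were further apart than the SD of either between Hspa5 and Pdia6, between Xbp1 and Pdia4, and between Pdia4 and Dnajb9. The other neighbours differed by less than their spread.

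The 10 genes varied between libraries of the same group more than most genes did. The SD of log2(CPM + 1) within groups had a median of 0.456 over the 10 genes, against 0.183 over the 13293 genes tested and 0.148 over the 7358 genes with a mean of at least 10 CPM. All 10 were above the median gene. Sdf2l1 had the widest range, 13.1-fold between its lowest and highest library, followed by Creld2 with 7.49-fold and Hyou1 with 5.07-fold. The spread was not the same in all groups. The median SD of the 10 genes was 0.173 in fasted control, 0.425 in fasted PLIN5, 0.632 in re-fed control and 0.365 in re-fed PLIN5 liver, against 0.130 to 0.179 for all genes in the same groups.

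Hspa5 (chr2:34771970-34777547) codes for BiP, the main HSP70 chaperone of the ER and the protein that holds the UPR sensors inactive. It was at 533, 603, 597 and 463 CPM in the fasted control libraries and at 663, 447, 609, 434 and 752 CPM in fasted PLIN5 libraries 1 to 5. In re-fed control libraries 1 to 5 it was at 522, 497, 1465, 799 and 1239 CPM, and in re-fed PLIN5 libraries at 555, 538, 564, 991 and 566 CPM. Both re-fed groups thus overlapped both fasted groups at their lower end, and the 4 highest values were those of re-fed control libraries 3, 4 and 5 and re-fed PLIN5 library 4. Re-fed control libraries 3 and 5 are clock-shifted, while libraries 4 of both re-fed groups are not.

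Hsp90b1 (chr10:86690209-86705509) codes for GRP94, the HSP90 of the ER. Its fasted control libraries were nearly equal, at 819, 811, 796 and 792 CPM, and its fasted PLIN5 libraries 1 to 5 had 959, 739, 1364, 718 and 1253 CPM. Re-fed control libraries 1 to 5 had 865, 728, 1479, 981 and 1779 CPM, and re-fed PLIN5 libraries 814, 758, 832, 1111 and 785 CPM. The fasted PLIN5 group fell into high libraries (1, 3 and 5) and low ones (2 and 4), on both sides of the fasted control range. Hyou1 (chr9:44379490-44392369), a large HSP70 relative that exchanges the nucleotide of BiP, was at 120, 114, 117 and 104 CPM in fasted control and at 131, 77.2, 111, 73.3 and 140 CPM in fasted PLIN5 libraries. In re-fed control libraries 1 to 5 it was at 99.0, 89.2, 371, 201 and 346 CPM, and in re-fed PLIN5 libraries at 102, 106, 118, 237 and 115 CPM. For Hyou1, library 4 was the only re-fed PLIN5 library above the fasted control range.

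Sdf2l1 (chr16:17130138-17132383) codes for a small partner of BiP and its DnaJ co-chaperones. It was at 9.23, 7.55, 5.46 and 4.39 CPM in fasted control libraries and at 13.9, 4.75, 23.9, 4.18 and 16.3 CPM in fasted PLIN5 libraries 1 to 5. It was at 10, 5.94, 54.8, 16.8 and 50.3 CPM in re-fed control libraries and at 11, 10.1, 10.1, 28.4 and 13.0 CPM in re-fed PLIN5 libraries. All 5 re-fed PLIN5 libraries were above all 4 fasted control libraries, but not above the fasted PLIN5 ones. Dnajb9 (chr12:44205559-44210326), the DnaJ co-chaperone ERdj4 that acts on BiP, was at 49.5, 59.2, 63.1 and 54.6 CPM in fasted control and at 82.6, 58.3, 39.9, 51.6 and 61.6 CPM in fasted PLIN5 libraries. It was at 48.3, 44.9, 100, 100 and 47.5 CPM in re-fed control libraries 1 to 5 and at 48.5, 33.7, 53.7, 91.6 and 47.8 CPM in re-fed PLIN5 libraries. Unlike the chaperones above, Dnajb9 was low in re-fed control library 5.

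Pdia6 (chr12:17266545-17284770) and Pdia4 (chr6:47796141-47813430) code for protein disulfide isomerases. Pdia6 was at 208, 184, 179 and 177 CPM in fasted control and at 259, 159, 307, 150 and 259 CPM in fasted PLIN5 libraries. It was at 278, 206, 394, 305 and 449 CPM in re-fed control libraries 1 to 5 and at 263, 224, 271, 350 and 283 CPM in re-fed PLIN5 libraries. All re-fed PLIN5 libraries and 4 of 5 re-fed control libraries were above the fasted control range, and re-fed control library 2 lay just inside it. Pdia4 was at 179, 157, 153 and 135 CPM in fasted control and at 179, 131, 240, 128 and 238 CPM in fasted PLIN5 libraries. It was at 155, 132, 356, 195 and 361 CPM in re-fed control and at 149, 132, 139, 246 and 156 CPM in re-fed PLIN5 libraries. Here 3 re-fed control libraries and 1 re-fed PLIN5 library exceeded the fasted control range.

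Creld2 (chr15:88819646-88826683) codes for a secreted, ER-resident protein that is induced by ER stress. It was at 24.4, 26.2, 23.7 and 18.7 CPM in fasted control and at 34.5, 19.8, 41.3, 18.3 and 47.8 CPM in fasted PLIN5 libraries. In re-fed control libraries 1 to 5 it was at 12.6, 15.6, 91.6, 37.2 and 94.6 CPM, and in re-fed PLIN5 libraries at 20.5, 25.9, 19, 45 and 19.6 CPM. Its lowest 2 libraries and its highest 2 were all in the re-fed control group.

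Herpud1 (chr8:94386438-94395377) and Xbp1 (chr11:5520659-5525893) followed other orders. Herpud1 was at 361, 808, 823 and 618 CPM in fasted control and at 808, 937, 634, 774 and 729 CPM in fasted PLIN5 libraries, and its re-fed values lay between 497 and 783 CPM. Its lowest library was fasted control 1 and its highest fasted PLIN5 2, both fasted. Xbp1, the transcription factor gene, was at 309, 200, 210 and 329 CPM in fasted control and at 287, 183, 162, 188 and 173 CPM in fasted PLIN5 libraries. It was at 239, 267, 280, 278 and 267 CPM in re-fed control and at 228, 234, 354, 261 and 313 CPM in re-fed PLIN5 libraries. Counts per gene do not separate the spliced from the unspliced Xbp1 mRNA, so IRE1 activity was not measured here.

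**Figure D2:**
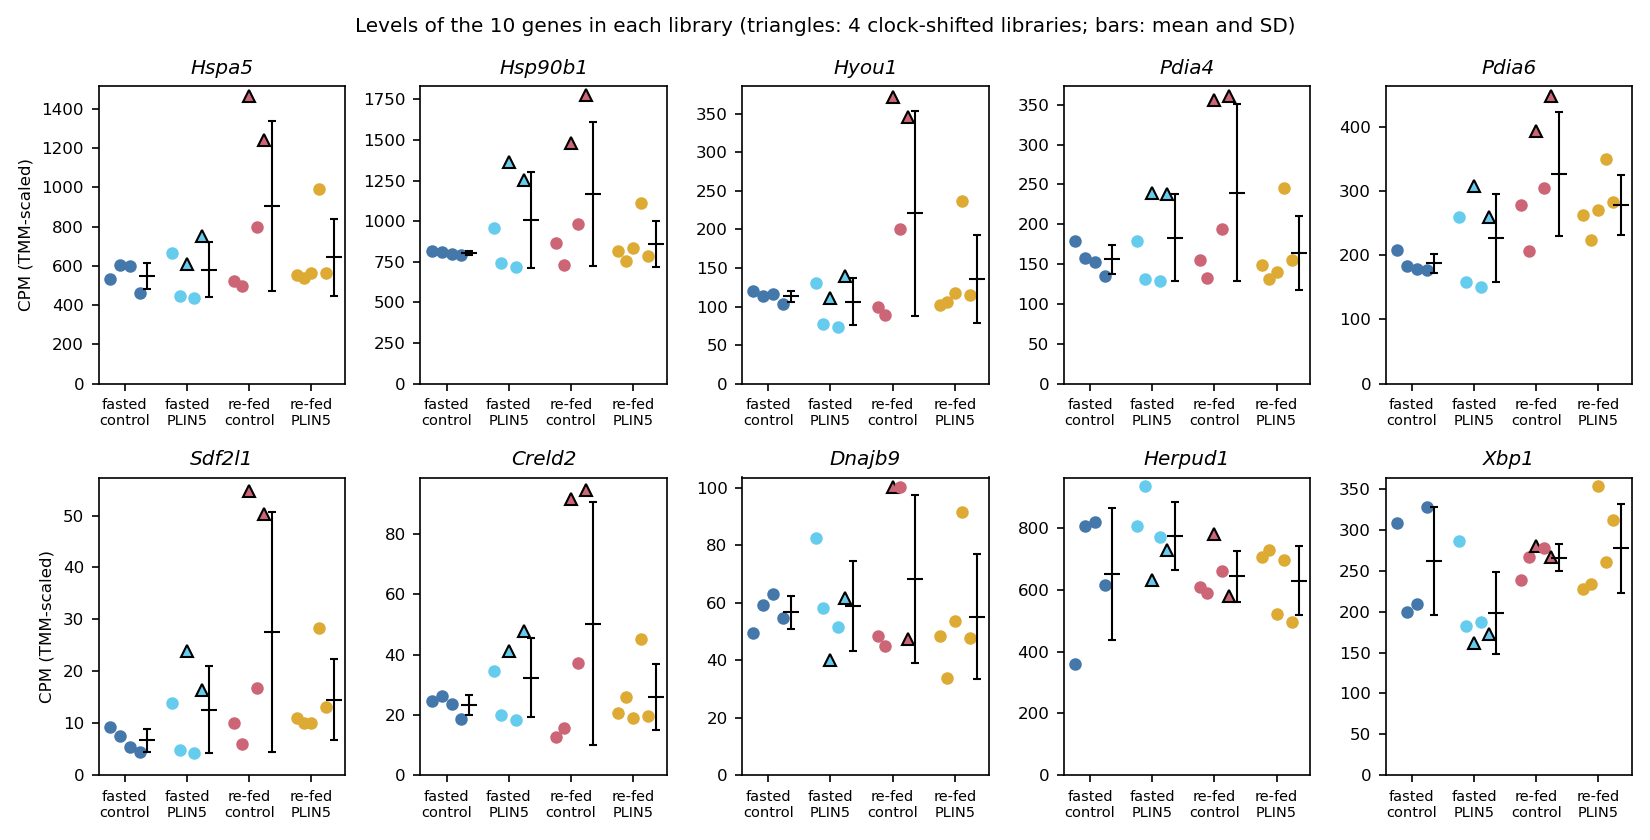
CPM of each gene (y axes from 0, 1 panel per gene) in the 19 libraries by group, with 1 point per library, triangles for the 4 clock-shifted libraries, and bars for mean and SD. Re-fed control libraries 3 and 5 and re-fed PLIN5 library 4 stand above their groups for Hspa5, Hsp90b1, Hyou1, Pdia4, Sdf2l1 and Creld2.

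Within groups 7 of the 10 genes varied together: Hspa5, Hsp90b1, Hyou1, Sdf2l1, Pdia4, Pdia6 and Creld2, a grouping made after their values were seen. Over the 19 libraries, with group means removed, the 21 pairs among them had Pearson r of 0.81 to 0.98 (median 0.94), and over the 15 libraries that are not clock-shifted 0.65 to 0.97 (median 0.92). Dnajb9 had r of 0.23 to 0.58 with the 7 over 19 libraries and 0.76 to 0.92 over the 15. Xbp1 had r of -0.05 to 0.14 and Herpud1 of -0.22 to 0.18 with them over 19 libraries. All values share the same libraries and their size factors, and each r is a description with no test. Between groups lay a median of 23.1% of the sum of squares of the 10 genes, against 31.2% for all genes tested.

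**Figure D3:**
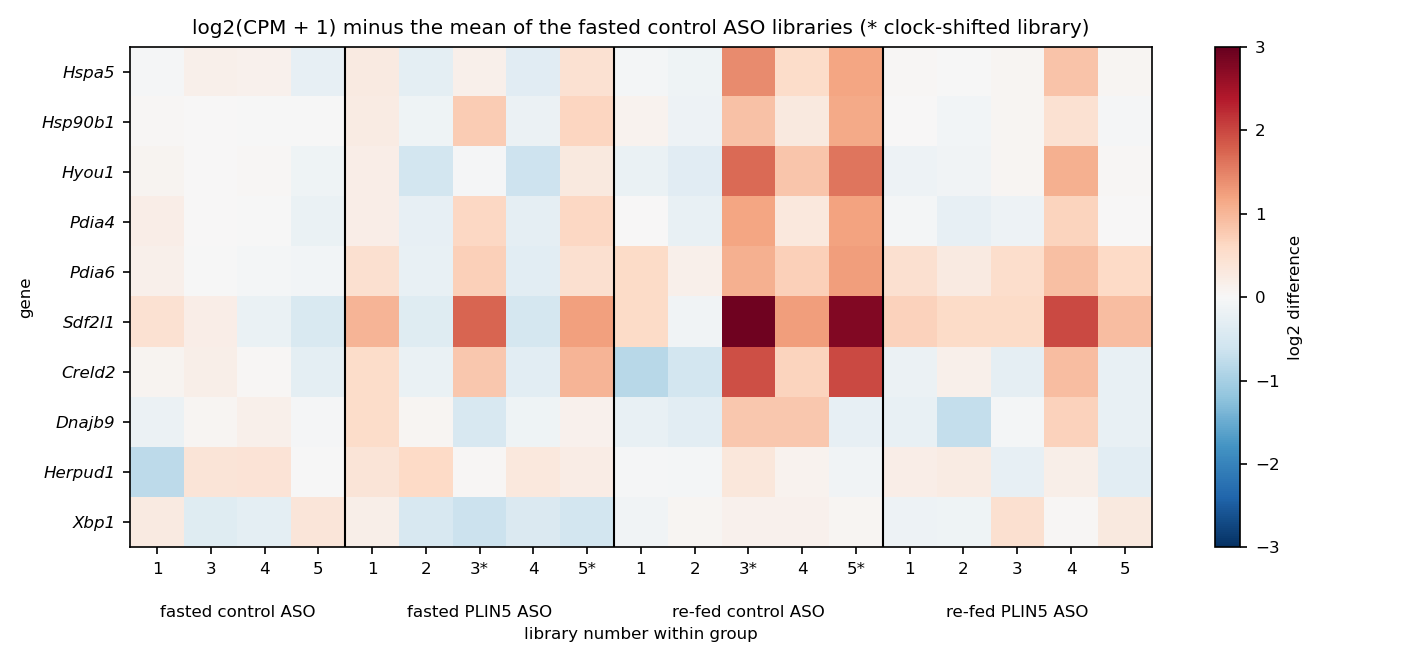
log2(CPM + 1) of each gene (rows) in each library (columns, grouped, * for clock-shifted) minus the mean of the fasted control libraries, with red above and blue below. The top 7 rows (Hspa5, Hsp90b1, Hyou1, Pdia4, Pdia6, Sdf2l1 and Creld2) are all above the fasted control mean in re-fed control 3, 4 and 5 and re-fed PLIN5 4. They are also all above it in fasted PLIN5 1 and 5. Dnajb9 is low in re-fed control 5, and the rows of Herpud1 and Xbp1 follow other orders.

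The first comparison asked what 4 h of re-feeding did under control ASO. Sdf2l1 and Pdia6 rose, and the other chaperones had higher means that did not pass the test. Sdf2l1 went from 6.66 ± 2.16 CPM (SD, n = 4) to 27.6 ± 23.2 CPM (n = 5), a log2 fold change of 2.05 ± 0.62 (SE) with an adjusted p of 0.0339 (edgeR quasi-likelihood test, Benjamini-Hochberg over all genes). Pdia6 went from 187 ± 14.5 to 326 ± 95.9 CPM, a log2 fold change of 0.80 ± 0.22 with an adjusted p of 0.0192 in the same edgeR test. Thus 2 of the 10 genes were called, both higher, where 13.2% of all genes were called and 6.42% were called higher. In bulk liver RNA, a difference in the share of a cell type and a difference in RNA per cell cannot be told apart.

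Hyou1 had a log2 fold change of 0.96 ± 0.37 (edgeR adjusted p 0.087) and Hspa5 of 0.72 ± 0.28 (edgeR adjusted p 0.095). Creld2 was at 1.11 ± 0.49, Pdia4 at 0.62 ± 0.28 and Hsp90b1 at 0.54 ± 0.23, with edgeR adjusted p of 0.128 to 0.15. These 5 genes and the 2 called make 7 of 10 with an unadjusted p under 0.05, against 28.8% of all genes. Dnajb9 (0.27), Xbp1 (0.02) and Herpud1 (-0.02) had the smallest log2 fold changes. The median log2 fold change of the 10 genes was 0.67, against 0.03 for all genes, and 9 of 10 were positive, against 53.3% of all genes.

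Neither call held without the clock-shifted libraries. In re-fed control, 7 of the 10 genes were higher in both clock-shifted libraries than in the other 3, which 19.8% of all genes were, with means 1.6 to 4.81 times those of the other 3. Without the 4 clock-shifted libraries 0 of 10 genes passed the edgeR test, where 8.78% of all genes did. Of the 10, 1, Pdia6, had an unadjusted p under 0.05. Sdf2l1 then had a log2 fold change of 0.72 (adjusted p 0.36, edgeR) and Pdia6 of 0.49 (adjusted p 0.103, edgeR), and the median of the 10 was 0.12. The count was also 0 without fasted control library 3, 4 or 5, or without re-fed control library 5. It was 1 without fasted control library 1 or re-fed control library 3, 4 without re-fed control library 2 and 5 without re-fed control library 1. Calls over all genes, 1759 with all libraries, moved as well. They were 1112, 1161 and 1255 without fasted control 3, 4 and 5, and 1293 without re-fed control 5. Without fasted control 1 they were 1266, and without re-fed control 3, 2 and 1 they were 1250, 1713 and 1670. The part of the clock difference in these values was not tested.

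Under PLIN5 ASO, re-feeding changed 0 of the 10 genes by the edgeR test, where 8.64% of all genes were called and 4.5% called higher. Only Xbp1 had an unadjusted p under 0.05. Xbp1 had 199 ± 50.3 CPM fasted and 278 ± 54.2 CPM re-fed (SD, n = 5 each), a log2 fold change of 0.49 ± 0.17 with an edgeR adjusted p of 0.0733, and the groups overlapped through fasted library 1. Without that library the log2 fold change was 0.66 (adjusted p 0.0115), and DESeq2 called it with all libraries at 0.48 (adjusted p 0.0412). Limma on log2 FPKM called 0 of the 10. The 7 chaperones that varied together ranged from -0.32 (Creld2) to 0.35 (Hyou1), and the median of the 10 was 0.03. Without the clock-shifted libraries, fasted PLIN5 3 and 5 among them, Pdia6 had a log2 fold change of 0.55 (edgeR adjusted p 0.0679) and Sdf2l1 of 0.93 (edgeR adjusted p 0.228). Under control ASO the values computed the same way were 0.49 and 0.72. In that fit Hyou1 (0.53 against 0.19 under control ASO) and Xbp1 (0.34 against -0.003) differed more between the ASOs. So did Herpud1 (-0.41 against -0.07) and Dnajb9 (-0.22 against 0.19), and the remaining genes differed by less than Sdf2l1.

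The re-feeding responses under the ASOs were compared directly by the interaction, which was called for 0 of the 10 genes in edgeR, DESeq2 and limma, and for 0.0226% of all genes in edgeR. Hsp90b1 (-0.76), Sdf2l1 (-1.85) and Creld2 (-1.43) had unadjusted p under 0.05 and edgeR adjusted p of 0.276 to 0.322. A negative value means a lower log2 fold change with re-feeding under PLIN5 than under control ASO, and 9 of 10 values were negative with a median of -0.60. Of these 9 genes, Hspa5, Hyou1, Sdf2l1 and Pdia6 had positive log2 fold changes under both ASOs, and Hsp90b1, Dnajb9, Creld2, Pdia4 and Herpud1 had negative ones under PLIN5 ASO. Without the clock-shifted libraries, which belong to the re-fed control and fasted PLIN5 groups, both of which enter the interaction with a minus sign, 8 of 10 values were positive with a median of 0.15, and 0 had an unadjusted p under 0.05.

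**Figure D4:**
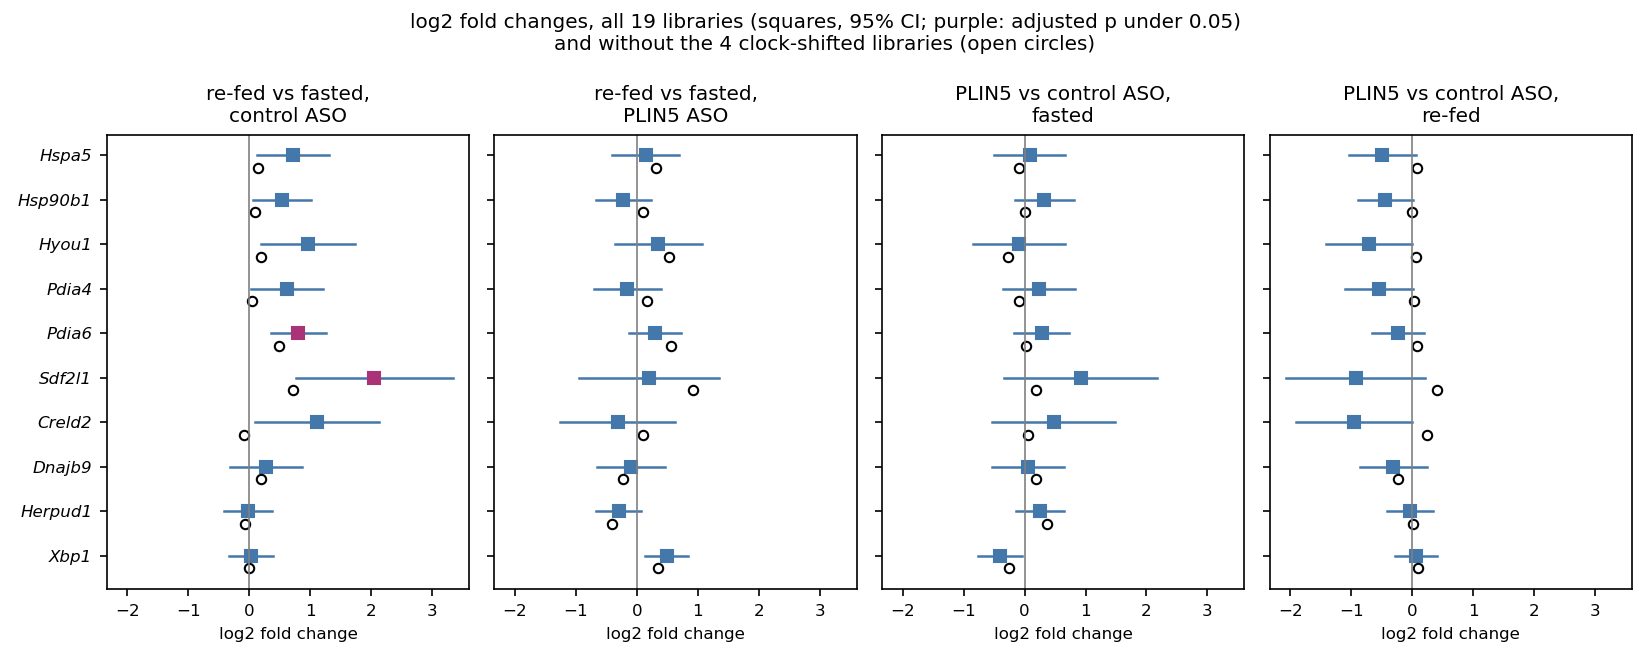
log2 fold change of each gene (x axis) in the 4 comparisons, with squares and 95% confidence intervals from all 19 libraries, purple where the edgeR adjusted p is under 0.05, and open circles without the 4 clock-shifted libraries. Sdf2l1 and Pdia6 are the called genes, and most open circles lie nearer to 0 than the squares in the first and last panel.

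The PLIN5 ASO against control ASO was compared in each feeding state to ask whether lower Plin5 went with a change in ER genes. In fasted liver 0 of 10 genes passed the edgeR test, where 1.17% of all genes did. Xbp1 was the one with an unadjusted p under 0.05, at 262 ± 66.3 CPM (n = 4) under control and 199 ± 50.3 CPM (n = 5) under PLIN5 ASO, a log2 fold change of -0.40 ± 0.17 with an edgeR adjusted p of 0.28. Sdf2l1 had the widest interval, a log2 fold change of 0.92 with a 95% confidence interval of -0.34 to 2.18. Hspa5 was at 0.08, with an interval of -0.50 to 0.66. The median of the 10 was 0.24, and 0.01 without the clock-shifted libraries. DESeq2 and limma also called 0 of 10.

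In re-fed liver 0 of 10 genes passed, where 1.38% of all genes did, and DESeq2 and limma called 0 as well. All but Xbp1 had a lower mean under PLIN5 ASO, with a median log2 fold change of -0.47. Creld2, at 50.3 ± 40.2 CPM under control and 26 ± 11 CPM under PLIN5 ASO (SD, n = 5 each), was the one with an unadjusted p under 0.05 and had a log2 fold change of -0.96 ± 0.45 with an edgeR adjusted p of 0.259. Hyou1 was at -0.71 and Hspa5 at -0.49. Without the clock-shifted libraries, re-fed control 3 and 5 among them, Hspa5 was at 0.09, Hyou1 at 0.06 and Creld2 at 0.25. In that fit 9 of 10 values were positive with a median of 0.07. The 2 ASO comparisons and the 2 re-feeding comparisons share groups, so their values are not independent.

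Other genes of the ER were read from lists that hold none of the 10, with lists and members chosen with earlier results of these data known. Under control ASO re-feeding, the largest share called was among genes of translocation into the ER and export from it, of which 16 of 35 tested rose and 0 fell, where 13.2% of all genes were called and 6.42% called higher. Stt3a, a catalytic subunit of the oligosaccharyltransferase, went from 77.0 ± 4.70 to 116 ± 18.8 CPM (log2 fold change 0.59 ± 0.11, edgeR adjusted p 0.00212). Lman1, the cargo receptor of ER export, went from 187 ± 8.44 to 264 ± 22.1 CPM (log2 fold change 0.50), and Sec61b, of the translocation channel, and Tram1, which helps chains enter it, had log2 fold changes of 0.49 and 0.71. Among other ER chaperones and folding enzymes 8 of 28 rose and 0 fell, led by Uggt1, the sensor of misfolded glycoproteins (0.74 ± 0.15, edgeR adjusted p 0.00298), the proline isomerase Ppib (0.62), Dnajc1 (0.45) and the thioredoxin-family protein Erp44 (0.35). Of the ERAD genes 4 of 24 rose, Derl2 (0.65), Edem1 (0.52), Edem3 (0.35) and Rnf139 (0.22), and 0 fell. Median log2 fold changes were 0.38, 0.29 and 0.20 in the 3 lists.

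Genes of sensing and regulation did not move one way. Ern1, which codes for IRE1, rose from 19.9 ± 5.42 to 37.3 ± 7.78 CPM (log2 fold change 0.91 ± 0.21, edgeR adjusted p 0.0069). Creb3l3, which codes for the liver ER-bound transcription factor CREBH, fell from 496 ± 14.2 to 343 ± 20.1 CPM (log2 fold change -0.53 ± 0.08, edgeR adjusted p 0.000377), and Tmbim6, an ER membrane protein, fell by 0.28 on the log2 scale. These were 1 higher and 2 lower of 16 tested. In the integrated stress response list 0 of 15 rose and 2 fell, Trib3 (-1.41) and Eif2ak1 (-0.23), a share near the 13.2% of all genes called. Of 17 cytosolic heat shock genes 1 rose, Chordc1 (0.35). Median log2 fold changes were 0.24 for the sensors, -0.08 for the stress response and 0.34 for the heat shock genes, against 0.03 for all genes.

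Without the clock-shifted libraries the number that rose became 6 in the translocation and export list, 2 among the chaperones, 1 among the ERAD genes and 1 among the sensors, while the calls over all genes went from 1759 to 1167 and the share called higher from 6.42% to 3.88%. The sensors then had 1 lower, the stress response list 0 in either direction, and the heat shock list 0 higher and 1 lower, Hsp90ab1 (-0.34, edgeR adjusted p 0.037). Median log2 fold changes were then 0.25 for translocation and export, 0.18 for the chaperones and 0.06 for the ERAD genes. They were 0.08 for the sensors, -0.18 for the stress response and -0.13 for the heat shock genes, the last of which changed sign. The genes then called included Lman1 (0.48), Sec61b (0.39), Uggt1 (0.43), Ppib (0.45), Derl2 (0.59) and Ern1 (0.71), and Creb3l3 was still lower (-0.47, edgeR adjusted p 0.00619). Leaving out single libraries gave 10 (without re-fed control 3) to 19 translocation and export genes higher. It gave 4 (without fasted control 4 or re-fed control 3) to 15 (without re-fed control 2) chaperones higher, and 2 (without fasted control 1 or re-fed control 5) to 9 (without re-fed control 2, 8 without re-fed control 1) ERAD genes higher. The chaperone count was 5 without fasted control 1, 3 or 5 or re-fed control 5. Among the sensors 2 were higher without re-fed control 5 or fasted PLIN5 2, 3 without re-fed control 1 and 4 without re-fed control 2. The stress response list had 1 gene higher and 1 lower without re-fed control 1. The heat shock count was 0 without fasted control 1, 3 or 5 or re-fed control 2, 3 or 5, and 2 without re-fed control 4. With fasted control 3 and 4 summed as 1 sample, 14 of 37 translocation and export genes, 5 chaperones and 3 ERAD genes were higher. Calls over all genes then went from 1759 to 1139.

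Under PLIN5 ASO re-feeding, 5 of 35 translocation and export genes rose and 0 fell, where 8.64% of all genes were called and 4.5% called higher. The single calls in the other lists, described next, are shares near these. Sec61b (0.53 ± 0.09), Lman1 (0.47 ± 0.09), Sec13 (0.32 ± 0.07) and Sec31a (0.31 ± 0.08), both of the COPII coat that carries cargo from the ER, came first, with edgeR adjusted p of 0.000984 to 0.0288. Among the chaperones Fkbp2 rose (0.34) and Pdia5 fell (-0.59), among the ERAD genes Derl2 rose (0.66) and Nploc4 fell (-0.25), and among the sensors Creb3l3 fell from 533 ± 27.2 to 377 ± 47.3 CPM (-0.50 ± 0.08, edgeR adjusted p 0.000426). In the stress response list Cebpb fell (-0.92), and among the cytosolic heat shock genes Hspb8 rose (0.30). Median log2 fold changes were 0.21 for translocation and export, 0.12 for the chaperones and 0.07 for the ERAD genes, and 0.01 for the sensors. The count of translocation and export genes was 3 without fasted PLIN5 library 5 or without re-fed PLIN5 library 3 or 4, and also 3 once the clock-shifted libraries were left out, a fit in which 3.34% of all genes were called higher. In it Fkbp2, Pdia5 and Nploc4 no longer passed (edgeR adjusted p of 0.0683 to 0.103). It called 2 chaperones higher (Ppib 0.43 and Calr 0.59) and 0 lower, Derl2 higher (0.75) and Erlec1 lower (-0.34) among the ERAD genes, and Creb3l3 lower (-0.52). It also called Atf3 higher (1.33), Cebpb lower (-0.93) and Hspb8 higher (0.29), and the chaperone median was 0.25. The number of chaperones that rose was 0 without fasted PLIN5 5 or re-fed PLIN5 2, 3 without fasted PLIN5 1 and 2 without re-fed PLIN5 5. The stress response list had 1 gene higher without re-fed control 5, a library that enters here through the shared estimate of spread.

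The re-feeding comparisons under the 2 ASOs share no libraries. Of the 16 translocation and export genes higher under control ASO and the 5 under PLIN5 ASO, 4 were in both (Lman1, Sec61b, Sec61g and Sec13), which is 25% of the first set and 80% of the second. Over all genes, 222 were higher in both, 26% of 853 and 37.1% of 598. Derl2 was higher and Creb3l3 lower in both. Among the 135 list genes tested, 15 had an unadjusted p under 0.05 for the interaction and the lowest adjusted p in edgeR was 0.178. DESeq2 and limma also called 0 of them, so no list gene was shown to respond differently under the ASOs.

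**Figure D5:**
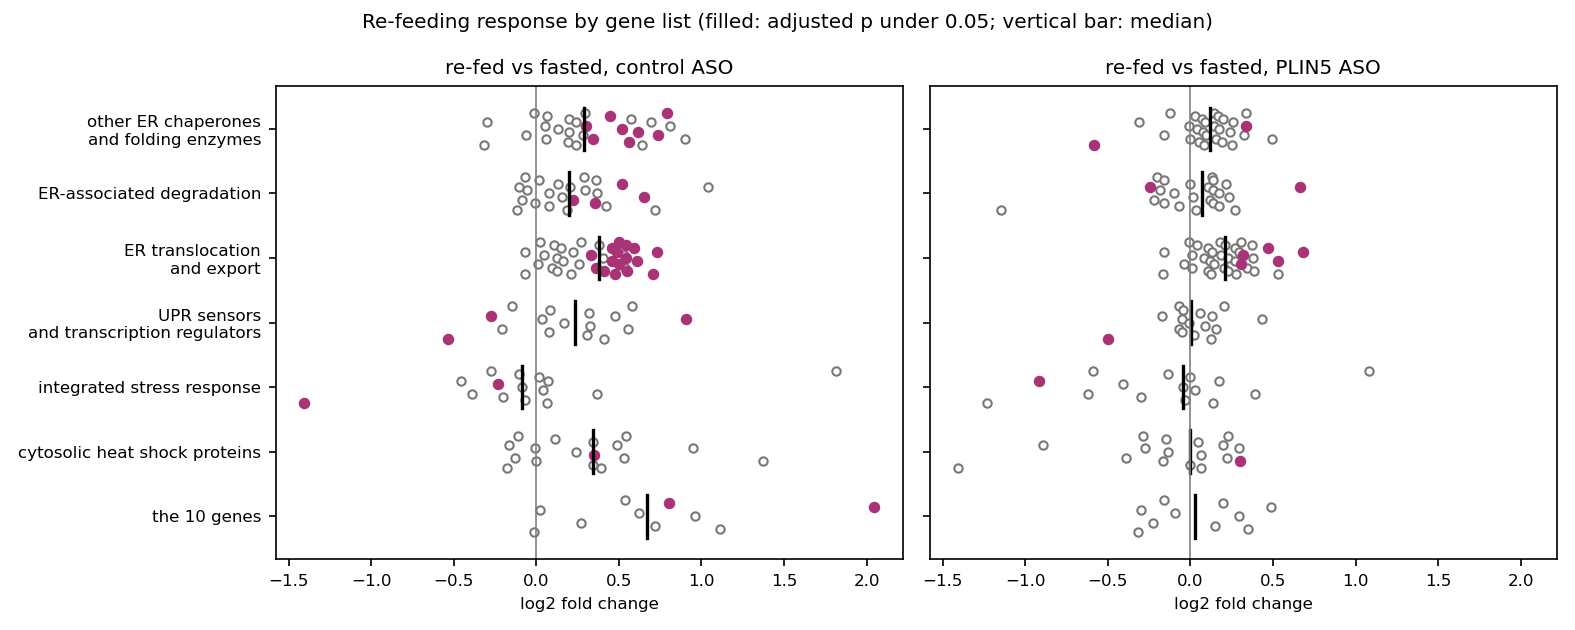
log2 fold change with re-feeding (x axis) of every tested gene of 6 lists and of the 10 genes under each ASO, with 1 point per gene, filled where the edgeR adjusted p is under 0.05, and a bar at the median. Translocation and export genes lie mostly above 0 in both panels, while the median of the 10 genes is 0.67 in the first and 0.03 in the second.

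With the ASO, 0 genes of the chaperone, ERAD, translocation and sensor lists passed the edgeR test in fasted or re-fed liver. At an unadjusted p under 0.05 there were 4, 3, 4 and 1 of them in fasted liver and 4, 3, 3 and 3 in re-fed liver, where 15.1% and 19% of all genes had one. Without the clock-shifted libraries edgeR called 1 ERAD gene (Erlec1 0.38, adjusted p 0.0369) and 1 translocation and export gene (Sar1b 0.38, adjusted p 0.0494) higher in fasted liver, and 0 in re-fed liver. With the replicate block 1 sensor was called lower in re-fed liver. Limma called 0 of them in either state, and DESeq2 called 0 except for 1 sensor higher and 1 lower in re-fed liver. In the stress response list Asns, asparagine synthetase, was higher under PLIN5 ASO in fasted liver, at 0.978 ± 0.591 CPM (n = 4) and 7.43 ± 4.52 CPM (n = 5), a log2 fold change of 2.91 ± 0.66 with an edgeR adjusted p of 0.0345. In that list of 15 genes limma called 0 on log2(FPKM + 1) and 1 higher on log2(FPKM + 0.1), and DESeq2 called 1 higher and 1 lower. With fasted control 3 and 4 summed as 1 sample, edgeR called 0 of the 15. Calls over all genes in fasted liver then went from 156 to 36. Without the clock-shifted libraries edgeR called Asns higher (2.68) and Atf3 (-1.82) and Ppp1r15a (-0.79) lower. With all libraries Atf3 was at -1.57 with an edgeR adjusted p of 0.072.

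The genes whose levels followed the mean z-score of the 10 most closely over the 19 libraries were mostly ER genes. Of the 10 themselves, each a part of that score, 7 had r of 0.856 (Pdia6) to 0.985 (Hspa5) with it. Dnajb9 had r of 0.60, Xbp1 of 0.18 and Herpud1 of 0.08, so the score mainly follows the 7 that varied together. By Pearson correlation with the mean z-score of the 10 genes, Dnajb11, the co-chaperone ERdj3, was first (r = 0.98, Spearman rho 0.93), followed by Manf (r = 0.97, rho 0.95), a secreted ER protein that is induced by ER stress. Canx (0.95), Ero1lb (0.94), Sel1l (0.93), Syvn1 (0.92), Spcs2 (0.92) and Morf4l2 (0.92) came next, and 7 of these 8 are in the lists above, Morf4l2 being the exception. Without re-fed control libraries 3 and 5, the farthest from the median of the score, r was 0.96 for Dnajb11, 0.95 for Manf and 0.80 for Syvn1, the lowest of the 8. The score itself ran from -0.89 in fasted PLIN5 library 4 to 1.77 in re-fed control library 3. The summed level of the 10 genes ran from 2538 to 5375 CPM, or 0.252% to 0.542% of counts. Re-fed control 2 and re-fed PLIN5 2, part way in Dbp, had the lowest scores of their groups (-0.69 and -0.49). In fasted PLIN5 the highest score was in library 1 (0.38), which is not clock-shifted, beside 0.10 and 0.33 in libraries 3 and 5.

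Genes with an exact ERSE in their window were also looked at as a set, without choosing them by value. There were 37 symbols, of which 18 were tested and 14 are not among the 10. Of these 14, 4 rose with re-feeding under control ASO and 0 fell, where 6.42% of all genes were called higher, with a median log2 fold change of 0.54 against 0.03 for all genes. Named after their values were seen, the 4 are Acacb, an acetyl-CoA carboxylase of lipid metabolism (3.16 ± 0.43), the ER lectin Calr (0.79 ± 0.25), Alg12 of N-glycan assembly (0.71 ± 0.21) and the BiP co-chaperone Dnajc3 (0.56 ± 0.15). Under PLIN5 ASO 1 of the 14 was called higher, Acacb again (2.05 ± 0.38), and the median was 0.16. Without the clock-shifted libraries only Acacb (3.25) was still called under control ASO, with Calr at 0.33, Alg12 at 0.59 and Dnajc3 at 0.26 and a median of 0.17. Under PLIN5 ASO that fit called Acacb (2.06) and Calr (0.59), with a median of 0.29. With the ASO 0 of the 14 were called in either feeding state, with medians of 0.15 and -0.22, and 0 without the clock-shifted libraries, with medians of -0.02 and 0.08. The ERSE-II set was smaller, with 12 symbols, of which 8 were tested and 7 are not among the 10. Of these 7, 1 rose with re-feeding under control ASO (median 0.20) and 0 under PLIN5 ASO (median 0.07), and 0 fell. With the ASO 0 of the 7 were called in either feeding state, with medians of 0.07 and 0.05. Some windows of both sets belong to genes of the lists above, so neither set is independent of them.

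Markers of other cell types that fill their ER were examined beside these results. Of the plasma and B cell list, 9 of 10 symbols were in the table. Its sum was 179 to 264 CPM, of which Sdc1, which hepatocytes also express, held 177 to 259, while Tnfrsf17 was at 0 in all libraries and Jchain and Mzb1 reached 1.2 and 0.655 CPM. The pancreatic acinar list summed to 20.9 to 43.4 CPM, nearly all of it Cela1, and Prss1, Prss2, Cpb1, Amy2a5 and Try4 were at 0 in all libraries. Kupffer cell and macrophage markers summed to 149 to 178 CPM in fasted control and 170 to 443 CPM in fasted PLIN5 liver, with 443 and 308 CPM in the clock-shifted libraries 3 and 5. In the re-fed groups they summed to 145 to 227 CPM under control and 128 to 260 CPM under PLIN5 ASO. In re-fed control they were 161 and 218 CPM in the clock-shifted libraries 3 and 5 and 145 to 227 CPM in the other 3. In the fasted ASO comparison 2 of 11 tested Kupffer cell and macrophage markers and 3 of 10 stellate cell and fibroblast markers were called higher, where 1.17% of all genes were called. The part of these cells in the levels of the 10 genes was not tested.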

How the data were processed

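Liver total RNA was extracted with a Qiagen RNeasy kit and made into Illumina libraries, per the labels' protocols. Subread, HISAT2 2.0.2, edgeR, FastQC and Cuffdiff 2.2.1 appear in the submitters' processing notes without a role, as do the builds GRCm38 and mm10. Annotation, strand setting and the handling of multi-mapping reads were not given in the sources used here. Whole-number counts and FPKM, both per gene symbol, were deposited by the authors, and 27 symbols had been turned into dates. The counts were fitted with edgeR 4.0.16 in R 4.3.3, using TMM scaling, filterByExpr by group (minimum count 10), 1 fit of all 19 libraries, quasi-likelihood F tests and Benjamini-Hochberg adjustment over 13293 genes at 0.05. The fit was tested on simulated data. The 5 comparisons were re-feeding under each ASO, the ASO in each feeding state, and the interaction. Alternatives were RLE scaling, other filters, DESeq2 1.42.0, limma 3.58.1 on log2 FPKM, only the groups compared, a replicate block, leaving out libraries, summing fasted control 3 and 4, and a correction for transcript length. Log2 fold changes were compared with transcript length over 12805 genes. Spearman rho was 0.221 for control re-feeding, -0.318 for the ASO in re-fed liver and -0.269 for the interaction. It was -0.057 for PLIN5 re-feeding and 0.04 for the ASO in fasted liver. With the trend taken out, ASO calls over all genes went from 183 to 50 in re-fed and from 156 to 184 in fasted liver. The cause of the trend was not tested. The genes, lists and alternatives, including the clock-shifted libraries, were chosen with earlier results of these data known. Besides the 10 genes, the text names up to 4 genes per list and comparison with the smallest p, and the 8 genes most correlated with the mean z-score of the 10. The effect of the alternatives on the lists, and of the clock-shifted libraries on the ERSE set, was added after seeing the data. Gene positions are from GENCODE on GRCm38, and promoter windows from RefSeq on GRCm38.p6. Of 138 list genes, 135 were tested, 1 was absent from the table under the symbols tried and 2 fell below the filter.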

Additional observations from a re-analysis of the deposited data

Results flagged for a closer look

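Each of the 10 genes was checked in each of the 4 groups for a library far from the others of its group, which chance alone finds in about 1 of 20 groups, and 7 of 40 checks found one. In 6 of the 7 it was library 4 of re-fed PLIN5, which is not clock-shifted. Hspa5 was at 991 CPM there, against 538 to 566 CPM in the other 4 libraries. Hsp90b1 was at 1111 CPM against 758 to 832 CPM, and Pdia4 at 246 CPM against 132 to 156 CPM. Hyou1 was at 237 CPM against 102 to 118 CPM. Sdf2l1 was at 28.4 CPM against 10.1 to 13 CPM, and Creld2 at 45 CPM against 19 to 25.9 CPM. These 6 genes are among those that varied together, so the 6 findings are not independent. The 7th was Xbp1 in library 1 of fasted PLIN5, at 287 CPM against 162 to 188 CPM in the others.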

How the results depend on the processing

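The number of the 10 genes called with re-feeding under control ASO, 2 with all libraries, was 1 with only the groups compared, 1 with limma at each of 3 settings (pseudocounts of 1 and 0.1, and no filter), 0 without the 4 clock-shifted libraries and 0 with fasted control 3 and 4 summed as 1 sample. Leaving out single libraries gave 0 to 5. Calls over all genes, 1759 with all libraries, were 1167 without the clock-shifted libraries and 1139 with fasted control 3 and 4 summed. Leaving out single libraries, they ran from 1112 (without fasted control 3) to 2014 (without re-fed PLIN5 2). Under PLIN5 ASO the number of the 10 genes called was 0 with all libraries, 1 with DESeq2, and 0 to 1 when single libraries were left out. The 1 was Xbp1 without fasted PLIN5 1. Both ASO comparisons and the interaction gave 0 under every alternative run. In the control re-feeding comparison Pdia6 was called under 25 and Sdf2l1 under 19 of 31 alternatives, with log2 fold changes of 0.49 to 0.93 and 0.72 to 2.30. Of 1540 single values of the 10 genes under the alternatives, 1464 kept direction and side of the threshold, 18 lost and 8 gained a call, and 50 changed sign, none of them called. With the replicate number as a block, 2 genes were called under control re-feeding (Sdf2l1 1.99, adjusted p 0.0259, and Pdia6 0.88, adjusted p 0.00426, edgeR) and 0 in the other comparisons, and Hyou1 changed sign in the fasted ASO comparison (0.045). The labels do not say that a number is shared between groups, so the numbers were not taken as pairs. Same-numbered libraries had r over 0.1 in 14 of 27 pairs (median 0.101, range -0.317 to 0.493), which cannot settle whether they were paired. Between fasted PLIN5 and re-fed control, the groups whose libraries 3 and 5 are clock-shifted, r was 0.31, 0.3, 0.344 and 0.493 for libraries 2 to 5 and 0.007 for library 1.

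The sign changes were as follows, on the log2 scale. Without the clock-shifted libraries, control re-feeding gave Creld2 -0.091 and Xbp1 -0.003, and PLIN5 re-feeding gave Hsp90b1 0.094, Creld2 0.097 and Pdia4 0.167. The fasted ASO comparison gave Hspa5 -0.093 and Pdia4 -0.091. The re-fed ASO comparison gave Hspa5 0.085, Hsp90b1 0.003, Sdf2l1 0.405, Creld2 0.246, Pdia4 0.033, Pdia6 0.08, Hyou1 0.061 and Herpud1 0.021. The interaction gave Hspa5 0.178, Hsp90b1 0.002, Sdf2l1 0.212, Creld2 0.189, Pdia4 0.123, Pdia6 0.062 and Hyou1 0.337. Herpud1 under control re-feeding was 0.098 in limma at all 3 settings, 0.109 with fasted control 3 and 4 as 1 sample (Xbp1 -0.078), and 0.056 with the length trend taken out. Leaving out single libraries, control re-feeding ranged from -0.086 to 0.152 for Xbp1 and -0.217 to 0.115 for Herpud1. PLIN5 re-feeding ranged from -0.064 to 0.256 for Hspa5, -0.355 to 0.06 for Dnajb9 and -0.189 to 0.566 for Sdf2l1. The fasted ASO comparison ranged from -0.099 to 0.167 for Dnajb9, -0.211 to 0.009 for Hyou1 and -0.028 to 0.166 for Hspa5, and the re-fed one from -0.093 to 0.046 for Herpud1 and -0.04 to 0.126 for Xbp1. The cause of these changes was not tested. The lowest count of any of the 10 genes in a library was 119, so counting error was below the spread between libraries.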
